A study of Mus musculus with 5 samples.

Results

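Tbx2, Tbx3, Tbx4 and Tbx5 are the T-box transcription factor genes of the developing lung, and their UMI counts (counts of distinct captured transcripts) were followed through the mesenchymal and endothelial cell types of mouse lungs with and without a working copy of Zswim8. The members were taken by symbol, 4 of the 32285 genes in the deposited matrices. They were chosen by their levels across cell types and by their difference between genotypes in these same libraries, so those values are given as a description. Adjusted p-values printed for the 4 genes place them within fits over all genes and are not independent evidence.

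Each of 5 libraries held the dissociated whole lungs of 1 mouse embryo at E18.5, shortly before birth. The 2 Het libraries came from Zswim8+/- embryos and the 3 KO libraries from Zswim8-/- embryos. No wild-type library was included, so Zswim8 function is reduced by 1 allele in the reference group too, and neither strain nor the deleted part of Zswim8 is given in the sources used here. ZSWIM8 is the substrate receptor of an E3 ubiquitin ligase that destroys Argonaute proteins whose microRNA has paired extensively with a trigger RNA, which removes that microRNA.

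T-box factors bind DNA through a shared domain. Tbx2 and Tbx3 form a related pair that mostly represses transcription and is known for keeping lung mesenchyme proliferating. Tbx4 and Tbx5 form another related pair of mostly activating factors, needed in early lung mesenchyme for Fgf10 and Wnt2 expression and for budding of the lung. On GRCm38, Tbx2 (chromosome 11, 85832551 to 85841948) and Tbx4 (chromosome 11, 85886422 to 85916097) lie on the plus strand 44474 bases apart. Tbx3 (chromosome 5, 119670669 to 119684724) and Tbx5 (chromosome 5, 119832668 to 119885219) form the corresponding pair on chromosome 5, also on the plus strand.

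The libraries held 3051 to 4634 kept cells and 56608582 to 93708304 UMIs over all barcodes, with 0 to 7 barcodes shared between any pair. Both Het libraries and KO replicate 3 came from male embryos, and KO replicates 1 and 2 from female embryos, judged from Xist and Y-linked UMIs. Zswim8 stood at 36.1 and 38.5 CPM (a gene's UMIs scaled to 1e6 UMIs of the summed cells) in the Het libraries and at 38.0, 39.4 and 41.0 CPM in the KO libraries, so the 3′ UMIs of the targeted gene do not check the labels, and Het and KO below mean the libraries so labelled. Mesenchymal cells numbered 569 and 583 in the Het and 835, 573 and 839 in the KO libraries, and endothelial cells 403 and 288 against 274, 288 and 285. Cell types were named from marker genes as "like" the type, and the short names are used below. Aerocytes, the flat gas-exchange capillary cells marked by Car4, numbered 70 and 47 in the Het libraries but 2, 2 and 3 in the KO libraries. Pericytes, the support cells of capillaries, numbered 14 and 9 against 52, 40 and 31.

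The sequence features that bear on a ZSWIM8 experiment are the seeds (bases 2 to 8, in capitals) of microRNAs known to be removed through ZSWIM8, printed as RefSeq gives them on GRCm38.p6.
mmu-miR-322-5p: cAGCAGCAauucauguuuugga
mmu-miR-503-5p: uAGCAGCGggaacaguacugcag
mmu-miR-7a-5p: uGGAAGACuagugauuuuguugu
mmu-miR-29b-3p: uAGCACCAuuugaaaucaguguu
mmu-miR-335-3p: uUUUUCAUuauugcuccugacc
The 5 seeds differ from one another over bases 2 to 8, but those of miR-322-5p and miR-503-5p differ only at base 8. Matches to the 7 seed bases were looked for on the sense strand of the longest annotated 3′ UTR of each gene (GENCODE M21), which has 934 bases in Tbx2, 1632 in Tbx3, 1352 in Tbx4 and 1732 in Tbx5. The motif TGCTGCT (miR-322-5p) occurred in 20.3% of the 21037 genes with a 3′ UTR, CGCTGCT (miR-503-5p) in 3.93%, GTCTTCC (miR-7a-5p) in 11.9%, TGGTGCT (miR-29b-3p) in 13.1% and ATGAAAA (miR-335-3p) in 19.8%. Tbx3 and Tbx5 held none of the 5 motifs. Tbx2 and Tbx4 each held 1 match, both to miR-7a-5p, shown with the motif in capitals.
Tbx2, 3′ UTR, chr11:85841486-85841492, plus strand: tccgcttgGTCTTCCcacctcta
Tbx4, 3′ UTR, chr11:85915193-85915199, plus strand: actccctgGTCTTCCaccagcac
A match is a string in a UTR and no evidence of a working site. The microRNAs themselves were not measured in these libraries.

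Tbx4 and Tbx5 were mesenchymal genes in these lungs, and their level was highest in alveolar myofibroblasts, the contractile Pdgfra-expressing cells at the rims of forming alveoli. Tbx5 in that type stood at 327 and 302 CPM in the Het libraries and at 317, 253 and 319 CPM in the KO libraries, with the groups overlapping. Tbx4 stood at 297 and 331 CPM against 177, 151 and 244 CPM, and every KO library lay below both Het libraries. The share of all genes whose groups do not overlap was not computed within this type. Pericytes came second for both genes, with 221 and 194 against 175, 126 and 187 CPM of Tbx5. Tbx4 in pericytes stood at 123 and 140.0 against 112, 119 and 161 CPM, where the groups overlapped. Alveolar fibroblasts, the Tcf21- and Wnt2-expressing cells of the alveolar wall, held 86.4 and 91.3 against 94.98, 76.1 and 86.9 CPM of Tbx5. Their Tbx4 level was 114 and 77.1 against 84.5, 85.3 and 122 CPM. In the Het libraries the 2 leading types did not overlap in range for Tbx4. Further down, adventitial fibroblasts, the matrix-rich cells around airways and vessels, kept 25.1 to 40.5 CPM of Tbx5 and only 4.96 to 12.4 CPM of Tbx4.

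In endothelium, Tbx4 and Tbx5 were near background. The endothelial sums held at most 2.61 CPM of Tbx4 and 3.22 CPM of Tbx5 in any library. Red-cell barcodes, which should hold none of these transcripts, gave 0.722 to 1.33 CPM of Tbx4 and 0.306 to 1.26 CPM of Tbx5, and epithelial cells gave 0.178 to 2.61 CPM over both genes, so the highest endothelial sums lay slightly above the red-cell level. The highest endothelial value of either gene was 10.4 CPM, in the venous cells of Het replicate 2, which number 25.

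**Figure D1:**
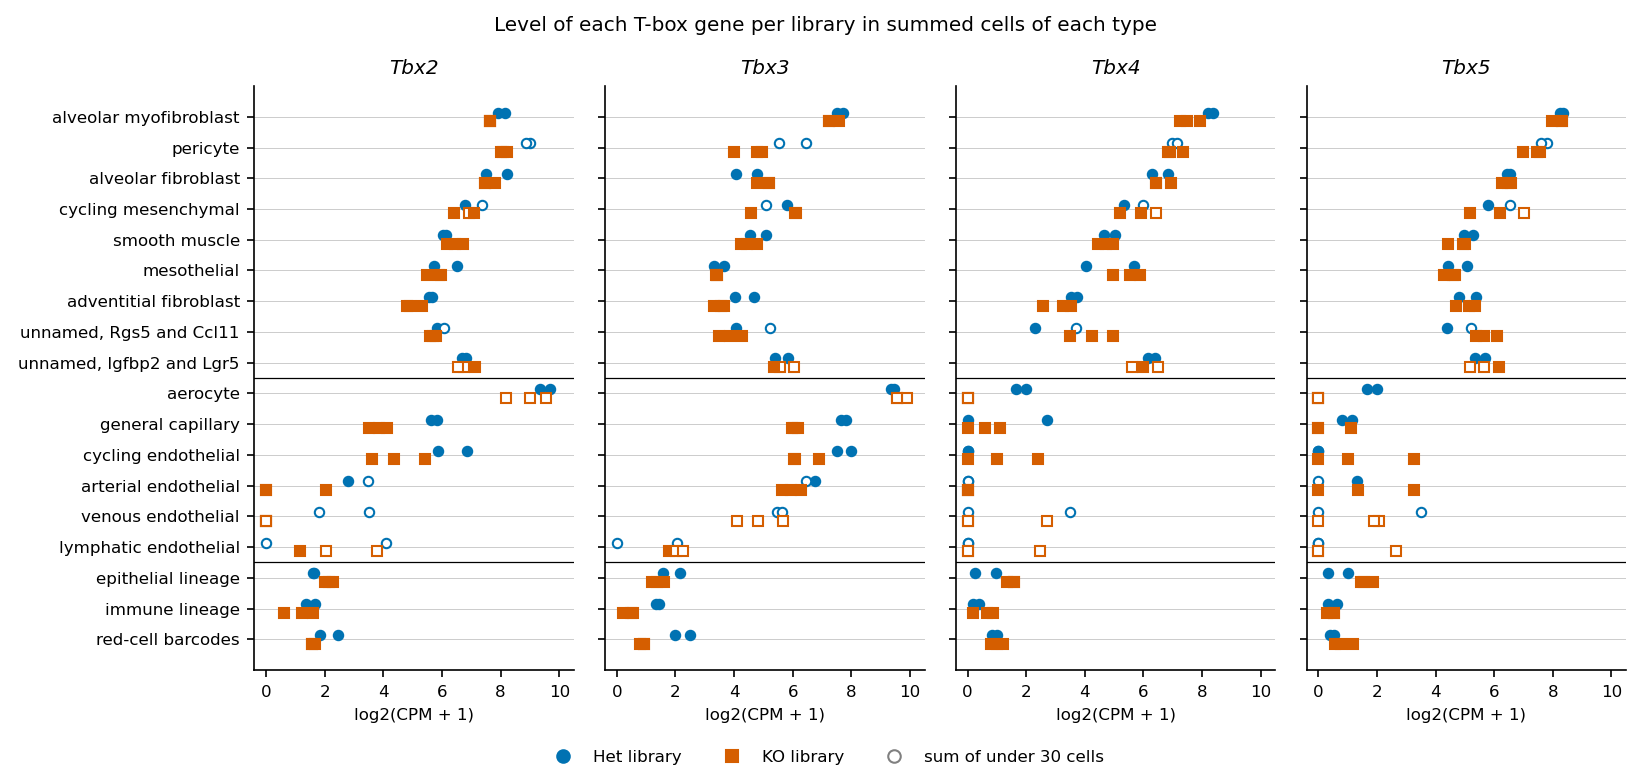
Each point is the level of 1 gene in the summed cells of 1 type in 1 library, as log2(CPM + 1); blue circles are Het and orange squares KO libraries, and open symbols rest on fewer than 30 cells. Tbx4 and Tbx5 are low in endothelial types, at most 10.4 CPM, while Tbx2 and Tbx3 peak in aerocytes and lie lower in KO in the general capillary and cycling endothelial rows.

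Tbx2 and Tbx3 had wider patterns that took in endothelium. Aerocytes held the highest mean level of each in both groups. Their Tbx2 level was 649 and 823 CPM in the Het libraries and 745, 291 and 507 CPM in the KO libraries. The KO values rest on 9, 4 and 12 UMIs in 7 cells. The 95% Poisson interval of the lowest, which covers counting error only, runs from 79.3 to 745 CPM. Tbx3 stood at 653 and 705 CPM against 745, 946 and 760.3 CPM in the same cells. Hence Tbx3 was not lower in the few aerocytes left in KO lungs, and Tbx2 could not be told apart from the Het level at this depth. Nearly every aerocyte carried both transcripts: 104 of 117 Het aerocytes (88.9%) and 7 of 7 KO aerocytes had a UMI of each. Tbx2 is itself among the genes that set the aerocyte cluster apart, although the 4 genes were kept out of the clustering.

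Outside aerocytes the members of this pair parted. Tbx2 came next in pericytes, at 506 and 463 CPM in the Het and 257, 295 and 269 CPM in the KO libraries, a gap of the groups with only 23 Het pericytes behind it. Alveolar myofibroblasts held 242 and 286 against 200.3, 197 and 198 CPM of Tbx2, again without overlap. Groups of 2 and 3 libraries often do not overlap: 29.8% of all genes did not in the mesenchymal sums, and the share within single types was not computed. In alveolar fibroblasts the groups overlapped, at 298 and 179 against 177, 177 and 225 CPM. Smooth muscle, the contractile layer of airways and vessels, went the other way, with 68.9 and 64.2 CPM in Het and 71.3, 86.3 and 104 CPM in KO. The next levels of Tbx3, by contrast, were in cycling endothelial cells, general capillary cells and alveolar myofibroblasts of the Het libraries, whose neighbouring ranges overlapped. Alveolar myofibroblasts held 180.3 and 210.4 against 149.9, 151 and 192 CPM of Tbx3. Pericytes held 45.4 and 86.2 CPM in Het but 15.1, 29.8 and 26.3 CPM in KO. Lymphatic endothelial cells, the drainage vessels, had 0 to 3.76 CPM of Tbx3, which is within the 0.722 to 4.63 CPM seen on red-cell barcodes.

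All 4 genes met in 1 cell most often in alveolar myofibroblasts, among the 5 types counted. Of 215 Het myofibroblasts, 109 (50.7%) had a UMI of each of the 4 genes, and of 278 KO myofibroblasts 119 (42.8%) did. In pericytes 6 of 23 Het cells (26.1%) and 13 of 123 KO cells (10.6%) did, and in alveolar fibroblasts 7 of 88 (7.95%) and 33 of 378 (8.73%). These shares are not thinned to 1 depth. General capillary cells with a UMI of both Tbx2 and Tbx3 were 60 of 369 in Het (16.3%) and 29 of 465 in KO (6.24%). In immune cells, which should lack them, 0.735 to 2.97% had a Tbx2 UMI and 0.22 to 2.27% a Tbx3 UMI, at median depths of 12817 to 14501 UMIs, deeper than the 6582 to 9302 UMIs of general capillary cells. The share of endothelial cells with a UMI was above that background in every library. It was 30.3 and 37.5% for Tbx2 in Het against 6.93, 10.1 and 11.2% in KO. Thinned to 3000 UMIs a cell, with 3 to 14 shallower cells left out per library, it was 20.8 and 24.8% against 3.46, 4.21 and 4.35%. For Tbx3 it was 65.5 and 72.6% against 31.4, 37.5 and 41.4%, and thinned 45.4 and 48.2% against 14.2, 14.4 and 17.0%. Every KO library lay below both Het libraries for either gene, thinned or not, and how often this holds over all genes was not computed.

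Between genotypes, no difference of the 4 genes was called in the summed mesenchyme, while Tbx2 and Tbx3 differed strongly in the endothelium. The mix of mesenchymal types differed between the groups. Alveolar myofibroblasts were 18.8 and 18.5% of mesenchymal cells in Het and 11.5, 11.3 and 13.9% in KO. Pericytes were 2.46 and 1.54% against 6.23, 6.98 and 3.69%, and alveolar fibroblasts 8.08 and 7.20% against 17.2, 19.2 and 14.8%. The part of this mix in the mesenchymal sums was not tested. Summed mesenchymal cells held 118 and 94.5 CPM of Tbx2 in Het and 82.9, 104 and 107 CPM in KO. Tbx4 stood at 71.7 and 57.4 against 41.4, 58.1 and 67.7 CPM, and Tbx5 at 77.1 and 66.2 against 59.5, 72.9 and 76.3 CPM. These 3 genes overlapped between the groups. Tbx3 did not, with 43.6 and 42.3 CPM against 24.3, 35.2 and 39.9 CPM, as was the case for the 29.8% of genes given above. With edgeR's quasi-likelihood test, the log2 fold change (KO over Het) was -0.09 (SE 0.133, adjusted p = 0.83) for Tbx2 and -0.35 (SE 0.175, adjusted p = 0.47) for Tbx3. It was -0.18 (SE 0.188, adjusted p = 0.729) for Tbx4 and -0.01 (SE 0.12, adjusted p = 0.978) for Tbx5. None of the 4 genes was called at an adjusted p under 0.05, where 5 of 13761 genes (0.0363%) were. The 95% interval of the Tbx5 difference ran from -0.29 to 0.26, and that of Tbx2 from -0.40 to 0.22. Tbx3 and Tbx4 had larger SEs, and the lack of a call does not show that their differences were small.

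In the endothelial sums Tbx2 stood at 106 and 128 CPM in the Het libraries and at 11.04, 12.2 and 15.3 CPM in the KO libraries. Tbx3 stood at 209.6 and 221 CPM against 49.4, 58.5 and 58.1 CPM. Neither gene overlapped between the groups, which held for 39% of all genes in these sums. The edgeR log2 fold change was -3.14 for Tbx2 (SE 0.151, adjusted p = 2.8e-05) and -1.93 for Tbx3 (SE 0.103, adjusted p = 5.01e-05), with 2 of the 3 members that could be tested called against 5.57% of 11613 genes. Since these contrasts were in view when the genes were picked, nothing is read from that count. Tbx4 stayed at background (log2 fold change -0.77, SE 0.921, adjusted p = 0.69), and Tbx5 was too low to test. Among males alone, KO replicate 3 at 15.3 CPM of Tbx2 and 58.1 CPM of Tbx3 lay below both Het libraries as well.

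The endothelial sums also differed in makeup. Aerocytes were 70 of 403 and 47 of 288 endothelial cells in Het and 2 of 274, 2 of 288 and 3 of 285 in KO. Lymphatic cells, which hold little of either gene (means over the 5 libraries of 6.59 CPM of Tbx2 and 2.49 CPM of Tbx3), were 10 and 6 in Het and 32, 20 and 29 in KO, and their part in the endothelial sums was not tested. Without aerocytes the log2 fold change was -1.92 for Tbx2 (SE 0.231, adjusted p = 0.00591) and -1.56 for Tbx3 (SE 0.11, adjusted p = 0.00117), so the Tbx2 difference shrank by more than the Tbx3 difference. The summed level of 8 endothelial marker genes was lower in KO, 5881 to 6244 CPM against 8230 and 8415 CPM in Het. The 10 mesenchymal markers summed to 441 and 635 CPM in the Het and to 361, 442 and 584 CPM in the KO endothelial sums. The 10 epithelial markers summed to 598 and 456 against 613, 302 and 316 CPM. The part of these marker levels in the T-box differences was not tested.

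**Figure D2:**
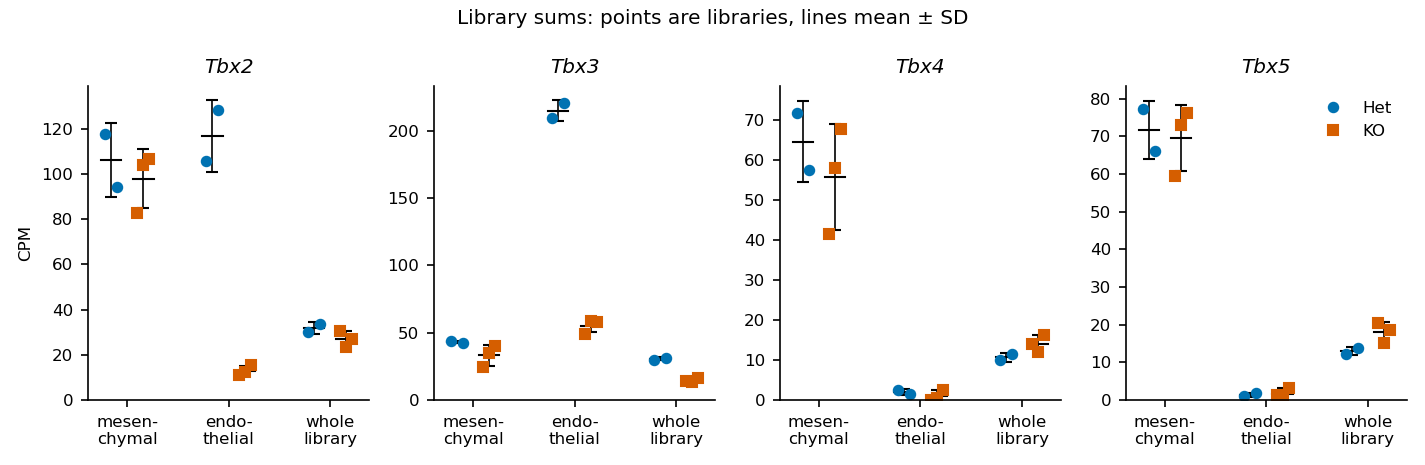
Points are libraries, and horizontal lines with bars the mean ± SD of the 2 Het (blue) and 3 KO (orange) libraries, in CPM of the summed mesenchymal, endothelial or all kept cells. The endothelial Tbx2 and Tbx3 groups are far apart, while the mesenchymal Tbx2, Tbx4 and Tbx5 groups overlap.

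The difference between lineages was tested as an interaction within libraries. The endothelial log2 fold change minus the mesenchymal one was -3.05 for Tbx2 (SE 0.198, edgeR adjusted p = 0.000168) and -1.57 for Tbx3 (SE 0.142, adjusted p = 0.00138). Tbx4 (-0.59, SE 0.722, adjusted p = 0.803) and Tbx5 (0.45, SE 0.675, adjusted p = 0.85) gave no call, and 1.18% of 13798 genes were called for this term. Without aerocytes the term was -1.83 for Tbx2 (adjusted p = 0.0323) and -1.20 for Tbx3 (adjusted p = 0.0154).

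Each type was also fitted on its own where no library held under 30 of its cells. In general capillary cells, a class named from the pooled capillary markers (Gpihbp1, Plvap, Aplnr, Kit and others), Tbx3 stood at 200.3 and 227 CPM in Het and at 64.9, 61.4 and 71.9 CPM in KO. Tbx2 stood at 48.1 and 56.3 against 13.5, 16.3 and 10.4 CPM. The edgeR log2 fold changes were -1.67 (SE 0.122, adjusted p = 3.43e-06) and -1.91 (SE 0.214, adjusted p = 9.66e-05), where 3.86% of genes were called. Cycling endothelial cells, marked by Mki67 and Top2a, held 183 and 252 against 65.6, 66.2 and 117 CPM of Tbx3 and 56.6 and 115 against 19.5, 11.2 and 41.8 CPM of Tbx2. Their log2 fold changes were -1.35 for Tbx3 (SE 0.216, edgeR adjusted p = 0.00259) and -1.84 for Tbx2 (SE 0.382, adjusted p = 0.0162), with 1.92% of genes called. Both calls were lost with sex as a covariate (adjusted p = 0.107 for Tbx3 and 0.346 for Tbx2) and without KO replicate 2 (0.0516 and 0.148). Tbx2 was also lost without Het replicate 2 (0.248) or with mixed cells left out (0.225).

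Arterial and venous endothelial cells were too few for a fit and are given as levels. Arterial cells held 106 and 86.5 CPM of Tbx3 in Het and 75.9, 48.9 and 61.0 CPM in KO, without overlap and with a smaller gap than in general capillary cells. How many of all genes do not overlap in arterial cells was not computed. Venous cells held 42.6 and 49.2 against 16.04, 50.4 and 27.4 CPM of Tbx3, where 1 KO library exceeded both Het libraries. Tbx2 was at most 10.4 CPM in either type.

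**Figure D3:**
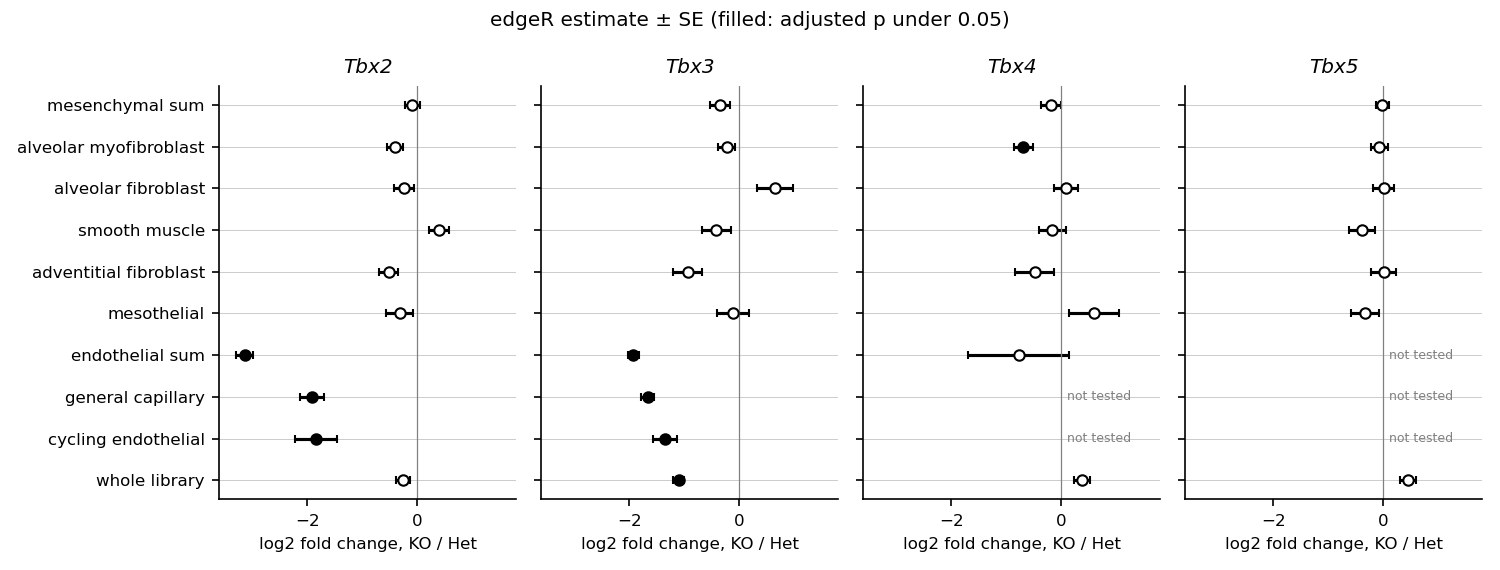
Horizontal positions are edgeR log2 fold changes (KO over Het) with their standard errors for the lineage sums, each fitted type and the whole library; filled points have an adjusted p under 0.05. Filled points are Tbx2 and Tbx3 in endothelial fits, Tbx3 in the whole library and Tbx4 in alveolar myofibroblasts.

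General capillary cells were 6 clusters named together, since none stood out alone from the others, and 5 of 7 capillary markers passed for the pool (4 of 7 were higher by at least 1 on the log2 scale). Only the cluster led by Prnd and Tcim had Aplnr or Kit among its 10 leading genes, and the clusters led by Hells and Mcm5 and by Hist1h2bc and Ccnb2 had cell-cycle genes in the lead. The clusters took unequal shares of the groups. A cluster led by Scn7a and Depp1 and another led by Atf3 and Junb held 48.6 and 41.3% of Het capillary cells, but 8.16, 3.59 and 4.64% of KO capillary cells. The Scn7a and Depp1 cluster has Tbx3 among its own leading genes. Within it Tbx3 stood at 367 and 426 CPM in Het (123 cells) and at 212, 176 and 200.0 CPM in KO (19 cells). In the cluster led by Hells and Mcm5, genes of DNA replication, which took similar shares of both groups (9.58 to 13.9%), Tbx3 stood at 199 and 244 against 68.9, 45.7 and 115 CPM and Tbx2 at 51.1 and 49.7 against 15.3, 27.9 and 17.7 CPM. In the cluster led by Irf1 and Junb, with 26.2 and 26.5% of Het and 42.2, 24.0 and 26.5% of KO capillary cells, Tbx3 stood at 78.2 and 123 against 53.2, 67.2 and 46.9 CPM. In the cluster led by Prnd and Tcim the groups overlapped, at 76.3 and 126 against 56.4, 97.2 and 92.4 CPM. The cluster led by Hist1h2bc and Ccnb2, which has Xist among its leading genes, held 66.5 and 98.8 against 35.1, 39.5 and 52.3 CPM. Several of these sums hold few UMIs of the gene, and the share of all genes that do not overlap was not computed within clusters. Tbx2 had the other order in the Scn7a and Depp1 cluster, with 53.3 and 84.1 CPM in Het and 100.0, 176 and 75.0 CPM in KO, where the groups overlapped. With the 2 mostly Het clusters left out, an alternative chosen after seeing the data, Tbx3 kept a log2 fold change of -1.10 (SE 0.174, edgeR adjusted p = 0.0106) and Tbx2 one of -1.32 (SE 0.357, adjusted p = 0.134), which ended the Tbx2 call.

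**Figure D4:**
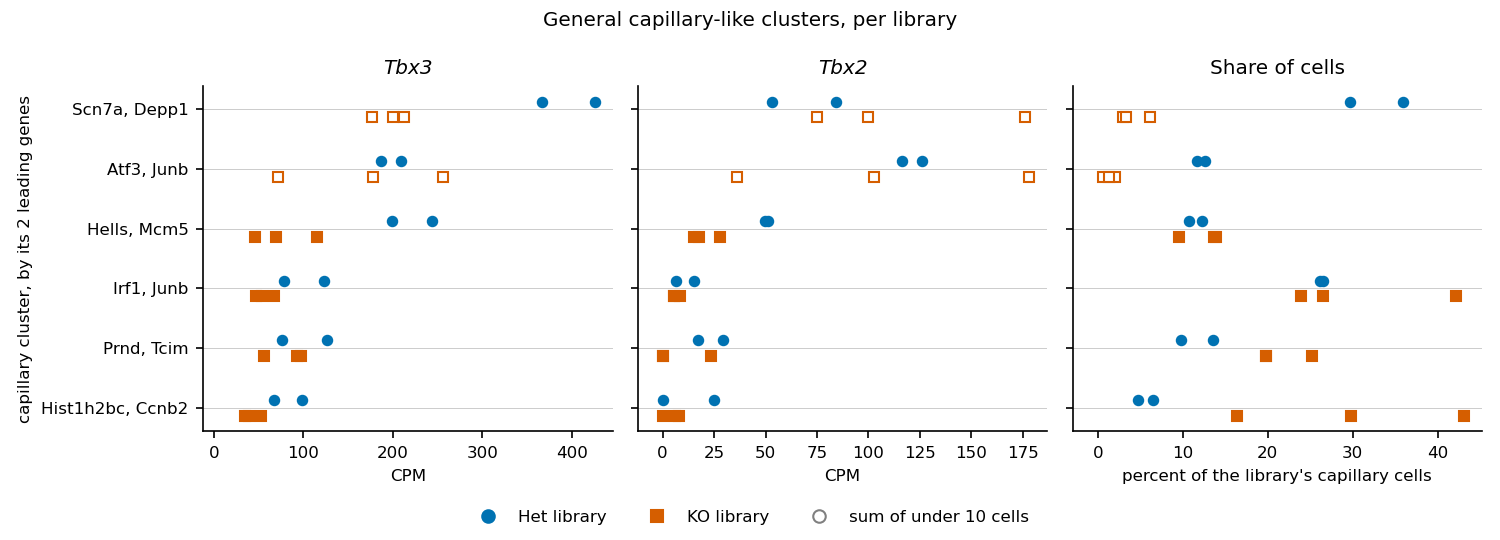
Rows are the 6 general capillary clusters named by their 2 leading genes; the left and middle plots give Tbx3 and Tbx2 in CPM per library and the right one the percent of the library's capillary cells in that cluster, with open symbols for sums of fewer than 10 cells. Tbx3 in the Scn7a and Depp1 cluster stands at 367 and 426 CPM in Het and 176 to 212 CPM in KO, and the top 2 clusters hold few KO cells.

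In mesenchymal types the only call was Tbx4 in alveolar myofibroblasts, where the edgeR log2 fold change was -0.69 (SE 0.17, adjusted p = 0.0418) and 1.62% of genes were called. The call was lost with sex as a covariate (log2 fold change -0.38, adjusted p = 0.744), without Het replicate 1 (-0.74, 0.121) or 2 (-0.64, 0.193), without KO replicate 2 (-0.55, 0.149), with the stricter cell filter (-0.66, 0.0781) and with mixed cells left out (-0.67, 0.0936). It held without KO replicate 1 (-0.65, 0.0261) or 3 (-0.90, 0.0225) and with library-size scaling (-0.70, 0.0197), and every estimate was below 0. DESeq2 gave no adjusted p for it. The male KO library at 244 CPM was the nearest to the Het libraries. Tbx2 in the same cells had a log2 fold change of -0.40 (SE 0.147, adjusted p = 0.233). No member was called in alveolar fibroblasts (0.3% of genes called), smooth muscle (0.105%), adventitial fibroblasts (0.107%) or mesothelial cells (0%). In mesothelial cells, the sheet covering the lung, 0 of 10991 genes were called by edgeR, 800 had an unadjusted p under 0.05, and DESeq2 called 10. Estimates for the 4 genes in these 4 types ran from -0.93 (Tbx3 in adventitial fibroblasts, SE 0.262, adjusted p = 0.29) to 0.65 (Tbx3 in alveolar fibroblasts, SE 0.329, adjusted p = 0.543). The direction of Tbx3 thus differed between these fibroblast types, and that difference was not tested.

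Whole-library sums show what a bulk measurement of these cells would show. Tbx3 stood at 30.1 and 31.5 CPM in Het and at 13.8, 13.5 and 16.6 CPM in KO, and its edgeR log2 fold change was -1.10 (SE 0.0949, adjusted p = 0.0189), where 3.56% of genes were called. The call was lost with sex as a covariate (adjusted p = 0.135) and without Het replicate 1 (0.152) or 2 (0.146). Tbx2 overlapped between the groups, with 29.997 and 33.6 against 30.7, 23.3 and 27.0 CPM (log2 fold change -0.26, adjusted p = 0.262). Tbx4 (0.37, adjusted p = 0.176) and Tbx5 (0.45, adjusted p = 0.133) had estimates above 0. In such sums fewer cells of a type and less RNA per cell cannot be told apart.

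The place of the UMIs shifted along with the numbers of cells. Aerocytes, 1.35% of Het and 0.0688% of KO kept cells, held 14.6% of Het Tbx2 UMIs and 0.599% of KO Tbx2 UMIs, and 14.2 against 1.73% of Tbx3 UMIs. Mesenchymal cells, 13.2% of Het and 22.1% of KO kept cells, held 43.3% of Tbx2 UMIs in Het and 74.5% in KO, and 18.3 against 45.6% of Tbx3 UMIs. For Tbx4 and Tbx5 they held 71.9 to 80.0% in either group. Cells left out of these classes, including mesenchymal and endothelial sub-clusters called mixed or chondrocyte, held 31.1% of Het and 17.2% of KO Tbx2 UMIs. They also held 36.0% of Het and 20.8% of KO Tbx3 UMIs. Some of their clusters lay outside the mesenchymal, endothelial, epithelial and immune lineages. Of the Tbx2 and Tbx3 UMIs in those clusters, 72.6% were in 1 cluster of 326 very deep barcodes. This cluster had a median of 36173 to 82144 UMIs, carried 9 of 10 epithelial and 8 of 8 endothelial markers and was left out of every type. It numbered 104 and 112 barcodes in Het and 24, 32 and 54 in KO. There Tbx3 stood at 101 and 101 CPM in Het against 14.54, 24.5 and 27.5 CPM in KO, and Tbx2 at 71.0 and 91.9 against 30.7, 35.2 and 27.1 CPM. These barcodes may hold several cells, which was not tested. Het libraries lay above KO libraries there, as in the endothelial sums, but the order among the KO libraries differed. How many of all genes do not overlap between the groups in this cluster was not computed.

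**Figure D5:**
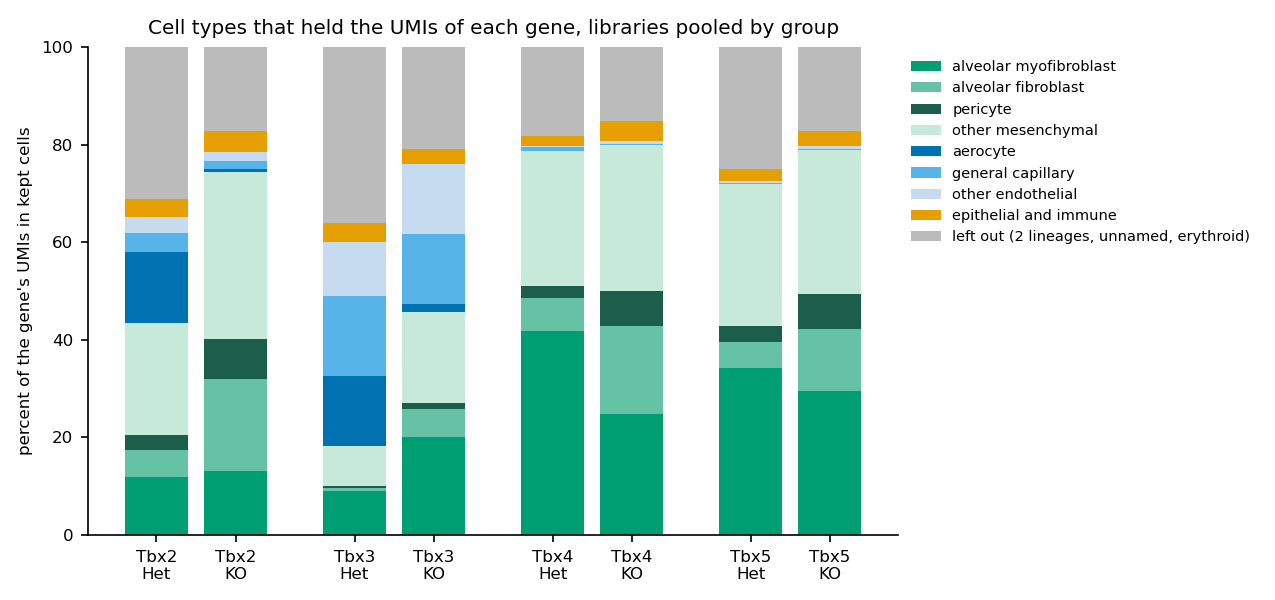
Stacked bars give the percent of each gene's UMIs in kept cells that fell in each cell class, with the 2 Het or 3 KO libraries pooled. Aerocytes hold 14.6% of Het Tbx2 UMIs and hardly any in KO, and alveolar myofibroblasts hold 41.8% of Het and 24.8% of KO Tbx4 UMIs (549 and 553 UMIs), while alveolar fibroblasts hold 88 and 400.

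Genes known to signal to or act with the T-box factors were read from lists made with earlier results of these libraries known, so the lists are no independent evidence of direction. The list of lung mesenchyme signals upstream of the T-box genes has 16 members, of which 12 could be tested in endothelium, where 2 fell and 1 rose, beside 5.57% of all genes called. Foxf1, a forkhead factor needed for lung vessels, stood at 296 and 287 CPM in Het and at 95.01, 122 and 146 CPM in KO (log2 fold change -1.24, SE 0.152, edgeR adjusted p = 0.00264). Hhip, a decoy receptor that binds hedgehog ligands, stood at 24.4 and 37.5 against 6.68, 5.03 and 7.44 CPM (-2.23, SE 0.242, adjusted p = 0.00152). Hhip is also a myofibroblast gene, at 288 to 549 CPM in the mesenchymal sums, and its part from stray mesenchymal RNA was not tested. Smo, the hedgehog signal transducer, stood at 20.6 and 20.8 against 31.4, 28.8 and 29.96 CPM (0.56, SE 0.131, adjusted p = 0.0448), a call that library-size scaling (0.0526), DESeq2 (0.174), the sex covariate (0.21), leaving out aerocytes (0.13) and leaving out any 1 library other than KO replicate 2 (0.0835 to 0.273) all ended. The list median was -0.14, beside 0.00 over all genes. In the mesenchymal sums none of the 16 was called, and Foxf1 was close to level there (log2 fold change 0.10, adjusted p = 0.904).

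Of 8 genes placed downstream of Tbx2 and Tbx3, 5 could be tested in endothelium and 1 was called, beside 5.57% of all genes. Cdkn1a is the cell-cycle inhibitor p21, which this pair is known to repress. It stood at 141 and 142 CPM in Het and at 72.6, 49.4 and 54.5 CPM in KO (log2 fold change -1.25, SE 0.144, edgeR adjusted p = 0.00204). It was also lower in KO without aerocytes (-1.18, adjusted p = 0.00623). Neither a link to the T-box levels nor the part of the cell makeup was tested. Cdkn1b, another cell-cycle inhibitor, did not pass (-0.28, adjusted p = 0.166), nor did Mycn, Ndrg1 or Cdh1. The list median was -0.02. In mesenchyme 0 of 6 were called, where 0.0363% of all genes were, with Cdkn1a at -0.43 (adjusted p = 0.415) and Shisa3 at 0.35 (adjusted p = 0.563). For mesenchymal sums as a whole edgeR gave 1662 genes an unadjusted p under 0.05, and DESeq2 called 127 genes.

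Of 9 genes placed downstream of Tbx4 and Tbx5, none was called in the mesenchymal sums, where all could be tested and 0.0363% of all genes were called, so no call says little. Fgf10, the ligand that drives epithelial budding, stood at 20.1 and 17.9 CPM in Het and at 34.6, 33.3 and 28.8 CPM in KO (0.80, edgeR adjusted p = 0.115). Wnt2, a mesenchymal Wnt ligand, stood at 18.1 and 15.4 against 24.0, 26.2 and 26.8 CPM (0.65, adjusted p = 0.136). Both genes mark alveolar fibroblasts, which were 46 of 569 and 42 of 583 mesenchymal cells in Het and 144 of 835, 110 of 573 and 124 of 839 in KO, and the part of that makeup was not tested. The list median was 0.18, and none of its 4 members tested in endothelium was called, where 5.57% of all genes were. Bmp4, a ligand on this list and on the upstream list, had an estimate of -0.39 in mesenchyme (adjusted p = 0.279).

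Among 12 other T-box genes in the files, Mga, a large T-box protein of the Max network, was broadly present at 64.5 to 107.9 CPM in mesenchymal, endothelial and epithelial sums. Its log2 fold change was 0.08 in mesenchyme (edgeR adjusted p = 0.737) and 0.03 in endothelium (adjusted p = 0.923). Tbx1 reached 27.0, 9.34 and 30.2 CPM in KO endothelium against 4.77 and 8.62 CPM in Het, with an estimate opposite in sign to those of Tbx2 and Tbx3 (1.77, adjusted p = 0.0786). Epithelial sums held 18.1 to 31.2 CPM of Tbx1, and the part of stray epithelial RNA was not tested. In mesenchyme, Tbx18 (6.93 to 17.2 CPM, log2 fold change -0.32, adjusted p = 0.779) and Tbx20 (0.373 to 9.42 CPM, -0.78, adjusted p = 0.712) were not called.

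Over 15 mesenchymal and endothelial types, the pattern of Tbx4 was most like that of Tbx5 among 11480 genes (Pearson r = 0.966 on mean log2(CPM + 1)), followed by Bmp5 (0.958), Gm32618 (0.949), Gm43050 (0.945) and Tenm4 (0.935). The types share libraries and depth, so r is a description with no test. Libraries with under 5 cells of a type did not enter, so the aerocyte values came from the Het libraries alone. Most like Tbx5 were Gm32618 (0.981), Arhgap24 (0.971) and Gm43050 (0.968), the last a noncoding gene whose start lies 748 bases from Tbx5 on the other strand, then Tbx4 and 1700016P03Rik (0.952). Tbx2 was most like 2610027K06Rik (0.905), a noncoding gene 328 bases away on the other strand. Emp2 (0.893), a membrane protein among the markers used to name aerocytes, came next, followed by Spred2 (0.888), Cacna1c (0.874) and Nudt22 (0.864). Tbx3 was most like Kin (0.92), Lrrk2 (0.895), Foxf1 (0.892), Fendrr (0.875), the noncoding neighbour of Foxf1, and Dach1 (0.855). Within each related pair the likeness differed: Tbx2 and Tbx3 had r = 0.418, against 0.966 for Tbx4 and Tbx5. Tbx3 and Tbx4 had r = -0.04.

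Some genes with like patterns also fell in KO endothelium, but their likeness was measured over the same cells, aerocytes included. Fendrr had a log2 fold change of -1.08 (SE 0.091, edgeR adjusted p = 0.000451), and Emp2 one of -3.42 (SE 0.166, adjusted p = 2.8e-05). Without aerocytes Emp2 had -1.82 (adjusted p = 0.00528) and Fendrr -0.79 (adjusted p = 0.00591). Emp2 was among the markers used to name aerocytes, so its values are not independent of that naming. Cacna1c (-1.80, adjusted p = 0.0142), Spred2 (-0.93, adjusted p = 0.0256) and Dach1 (-0.77, adjusted p = 0.00995) were called too, but not without aerocytes (adjusted p = 0.0551, 0.173 and 0.0551). Kin (-0.13, adjusted p = 0.675), Lrrk2 (-0.58, adjusted p = 0.061) and Nudt22 (-0.53, adjusted p = 0.425) were not called. Of the neighbours within 100 kb, Tbx3os1 overlaps the start of Tbx3 on the other strand and had -2.15 in endothelium (SE 0.434, adjusted p = 0.0238), a call lost with the sex covariate (0.215) and without Het replicate 1 (0.234) or 2 (0.0965). Whether counting used strand is not stated, so UMIs of Tbx3os1 and Tbx3 cannot be told apart where they overlap. Bcas3, beside Tbx2, was not called in either lineage (-0.42 in endothelium, adjusted p = 0.197). Gm43050 beside Tbx5 stood at 17.0 to 23.5 CPM in the mesenchymal sums, with an estimate of -0.05 (adjusted p = 0.929). The other neighbours above 1 CPM, Bcas3os2, 2610027K06Rik, Gm11444 and 1700021F13Rik, were not called in the mesenchymal sums (adjusted p from 0.58 to 0.915).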

How the data were processed

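Whole lungs of 5 embryos were measured by 10x 3′ single-cell RNA-seq. The authors deposited raw UMI counts per gene and barcode, which per the file headers come from Cell Ranger 4.0.0, and on mm10 per the submitters' processing notes. The annotation version, strand setting and barcode filter are not given in the sources used here. Barcodes under 500 genes or over 15% mitochondrial UMIs were dropped, red-cell barcodes and called doublets (78 to 186 per library) were removed, and cells were clustered without the 4 T-box genes. Types were named from fixed markers. Pooling the general capillary clusters and other naming details were set after the clusters were seen. Counts were summed per library and type and tested two-sided with edgeR 4.0.16 (TMM, filterByExpr, Benjamini-Hochberg) in R 4.3.3, with DESeq2 1.42.0 as an alternative. Where DESeq2 gave no adjusted p, none is reported. An SE is the fold change divided by the root of the F statistic. Levels are CPM of the summed counts. Types needed 30 cells in every library for a fit. Scripts were tested on simulated data. The members and lists were chosen with earlier results of these data known. Named genes are the 4 members, listed genes that passed the test or were largest in estimate, the 5 genes most like each member, and neighbours within 100 kb. Each library is 1 embryo, so n counts embryos. Intervals of levels cover counting error only, while those of fold changes come from the edgeR fit over libraries. Alternatives were scaling, the low-count filter, the replicate block, sex, cell filters, cluster resolution, thinning, and leaving out each library, mixed cells or cell classes.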

Additional observations from a re-analysis of the deposited data

Results flagged for a closer look

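The genotype difference of Tbx2 and Tbx3 itself differed between lineages, by a test of the interaction in edgeR. The endothelial log2 fold change minus the mesenchymal one was -3.05 for Tbx2 (adjusted p = 0.000168) and -1.57 for Tbx3 (adjusted p = 0.00138). In the endothelial sums every KO library lay below both Het libraries for these genes, and 39% of all genes did not overlap between the groups there. Leaving out each library in turn gave -3.39 to -2.75 for Tbx2 and -1.66 to -1.45 for Tbx3. Without aerocytes the terms were -1.83 and -1.20. Since the 4 genes were chosen with these results known, the terms describe these libraries.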

How the results depend on the processing

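Endothelial Tbx2 and Tbx3 kept their direction and call under every alternative run. Whole-library Tbx3 lost its call with the replicate block (-1.19), with sex as a covariate (-0.94) and without either Het library (range over left-out libraries -1.19 to -1.05). Deviations of same-numbered libraries from their group mean had correlations of -0.2 to -0.02 over 2 shared numbers. With only 2 Het libraries their deviations mirror each other, so these correlations cannot show whether the numbers pair the libraries. With the replicate block endothelial Tbx2 was -3.30 and Tbx3 -1.97, alveolar fibroblast Tbx4 -0.08 and adventitial fibroblast Tbx5 -0.02. Estimates that were not called changed sign, and the cause was not tested. With sex as a covariate these were mesenchymal Tbx2 (0.01), Tbx4 (0.07) and Tbx5 (0.09), endothelial Tbx4 (0.38, from -0.77), myofibroblast Tbx5 (0.0022), alveolar fibroblast Tbx5 (-0.03) and smooth muscle Tbx4 (0.09). Mesenchymal Tbx5 was 0.01 with the stricter cell filter. Library-size scaling gave -0.05 for alveolar and -0.03 for adventitial fibroblast Tbx5. Mixed cells left out gave -0.17 and -0.05 for them and 0.45 for smooth muscle Tbx4, and resolution 2 gave -0.06 for adventitial Tbx5. Over left-out libraries the ranges were, in mesenchyme, -0.25 to 0.10 (Tbx2), -0.35 to 0.01 (Tbx4) and -0.14 to 0.12 (Tbx5). They were -0.16 to 0.03 for myofibroblast Tbx5, -0.56 to 0.17, -0.15 to 0.40 and -0.09 to 0.09 for Tbx2, Tbx4 and Tbx5 in alveolar fibroblasts, -0.32 to 0.08 for smooth muscle Tbx4 and -0.32 to 0.33 for adventitial Tbx5. In mesothelial cells they were -0.69 to 0.07 (Tbx2), -0.25 to 0.15 (Tbx3), -0.15 to 1.53 (Tbx4) and -0.58 to 0.13 (Tbx5). Genes called in the mesenchymal sums (5) became 13 with library-size scaling, 127 with DESeq2, 299 without the low-count filter, 12 with the replicate block, 0 with sex, 11 with doublets kept, 219 with mixed cells left out, 138 without cycling and mesothelial cells, and 0 to 155 over left-out libraries. Endothelial calls (647) became 1536 without the filter, 208 with the block, 174 with sex, 286 without aerocytes and 133 to 952 over left-out libraries. Whole-library calls (631) became 2098 with DESeq2, 6 with the block, 0 with sex and 0 to 812 over left-out libraries. The mean Tbx5 level in alveolar fibroblasts was 98.9 CPM at resolution 2, 90.2 at resolution 0.5 and 87.1 at resolution 1. Thinning lowered the mean share of cells with a UMI to 22.8% (Het) and 4.01% (KO) for endothelial Tbx2, 46.8 and 15.2% for endothelial Tbx3, 55 and 42.6% for myofibroblast Tbx4 and 58.8 and 54.3% for myofibroblast Tbx5. Leaving out the clusters mostly of Het cells was chosen after seeing the data. Leaving mixed cells out of mesothelial cells was not run. The 7 KO aerocytes limit any statement on that type.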
